A study of Rattus norvegicus with 218 samples.

Results

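The 3 angiotensin system genes Agt, Agtr1a and Agtrap were the assays whose gene symbol matched these names, 3 of the 165 genes on a microfluidic RT-qPCR panel run on neurons of the dorsal vagal motor nucleus (DMV) in the brainstem of adult male Sprague Dawley rats. The genes were taken by name, not by a measured value, though with earlier results of these data known. Neurons were marked with an antibody to the neuronal protein NeuN in frozen brainstem sections, captured by laser from the left or right DMV, and assayed singly or as pools of 2 to 8 neurons. Naive rats (3 animals) had no surgery. Sham rats (4 animals) were anesthetized with ketamine/xylazine and had the femoral vessels exposed and a thread placed around them and left untied. In the remote ischemic preconditioning (RIPC) group (3 animals) the same anesthesia and surgery were followed by tying the thread to occlude the vessels of both hind limbs. RIPC brains were taken 2.5 h after reperfusion, and the labels give this collection time for sham samples as well, although sham rats had no occlusion to reperfuse. The naive rats differed from both other groups in anesthesia and surgery together. Animals are called by their group and number.

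The angiotensin system begins with angiotensinogen, the secreted precursor encoded by Agt, which is cut in steps to angiotensin II. Angiotensin II acts mainly on the AT1 receptor, encoded in rats by Agtr1a and by a second gene that was not on this panel, and the product of Agtrap, the AT1 receptor-associated protein, binds the receptor tail and promotes its internalization. In the brain angiotensinogen is made largely by astrocytes, and AT1 receptors in the dorsal vagal complex take part in the control of blood pressure and of vagal outflow.

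Each sample had a Ct, the cycle at which product crossed the detection threshold, or no value, for each of 168 assays. After 5 repeat runs were averaged with their first runs there were 213 samples, of which 186 had a value in at least 25% of the assays and were analysed (81 naive, 62 sham and 43 RIPC samples; 98 single neurons and 88 pools). The yield, the number of assays with a value, lay between 43 and 149 of 168, and its median was 69 for single neurons against 96 for pools. Pools of RIPC replicate 1 and naive replicate 1 had the lowest means, 65.4 and 71.7 assays, while the other 8 animals' pools had means of 84.4 to 100.2. Of the markers listed for the labelled cell type, Chat, the acetylcholine-synthesizing enzyme of vagal motor neurons, had a value in 68 of 98 single neurons and 72 of 88 pools. Ache, the enzyme of acetylcholine breakdown, had a value in 89 and 79 of these. The neuronal genes Camk2a, Scn2a, Eno2 and Rgs4 had a value in 95, 94, 92 and 85 of the single neurons and in 82, 87, 77 and 81 of the pools. Gfap, the astrocyte filament protein and the only astrocyte marker on the panel, had a value in 79 of 98 single neurons and 68 of 88 pools, so the captured samples were not free of an astrocyte transcript. A "level" below is the Ct with its sign turned and centred on the sample's median Ct of the 35 most often detected genes, in cycles, so that a difference of +1 is about a doubling of product at full amplification. The sources used here give no assay efficiencies, and a level, a Ct or a share of late Ct set beside that of another gene therefore describes the assays and gives no ratio of transcript amounts.

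Agt and Agtrap were detected in most samples and Agtr1a in a minority. Agt had a value in 155 of 186 samples (83.3%), rank 27 of the 165 genes by detection, and its Ct lay between 8.07 and 21.1 (median 14.2). Agtrap had a value in 134 samples (72.0%), rank 54, with a Ct from 11.6 to 24.3 and a median of 16.2. Agtr1a had a value in 64 samples (34.4%), rank 101, below the median gene of the panel at 50.5%, with a Ct from 13.5 to 26.5 and a median of 19.8. Detection was highest for all 3 genes in the samples of highest yield, which each gene's own value helps to make up. From the 28 samples with 42 to 55 assays to the 85 samples with 84 or more, the share of samples with Agt went from 50% to 97.6%, with Agtrap from 42.9% to 91.8% and with Agtr1a from 10.7% to 45.9%. Agtr1a did not follow the yield throughout, since it had a value in 9 of the 27 samples with under 42 assays (33.3%, 7 of the 9 late), above the 10.7, 28.9 and 31.4% of the next 3 bands. In pools, fewer expressing cells and less RNA per cell cannot be told apart.

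**Figure D1:**
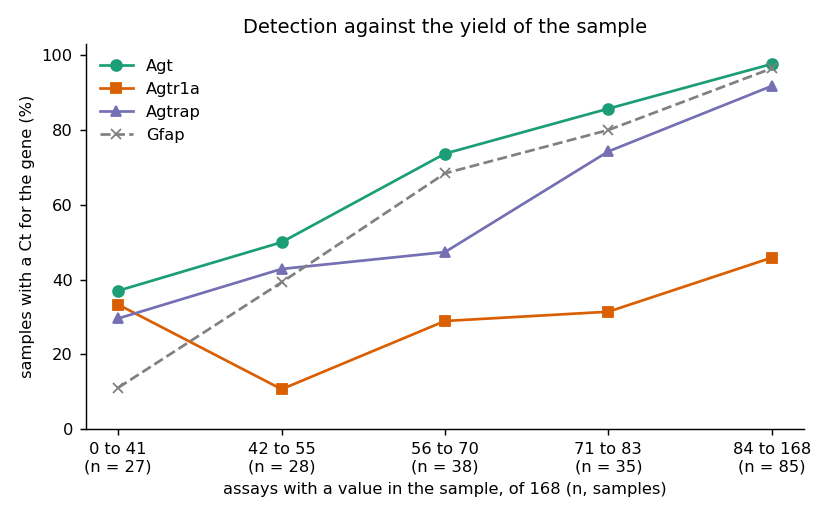
Percent of samples with a Ct for Agt, Agtr1a, Agtrap and, for comparison, Gfap (y axis), in bands of the number of assays with a value in the sample (x axis, with the number of samples); all 213 samples are shown, the lowest band being the 27 samples left out of the other results. Between the 42 to 55 and the 84 to 168 bands Agt goes from 50% to 97.6% and Agtr1a from 10.7% to 45.9%, and in the lowest band Agtr1a stands at 33.3%.

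Late Ct values, those above 20, were frequent in the Agtr1a assay and nearly absent in the Agt assay. Agtr1a had 32 late values among 64 (50%), the rank 3 share of late values among the 137 genes with at least 20 values, after the histamine receptor gene Hrh1 (67.9%) and the ghrelin receptor gene Ghsr (52.2%). Agtrap had 19 late values of 134 (14.2%, rank 13) and Agt had 1 of 155 (0.645%). Over all genes 4.57% of values were late, and 36 of the 137 genes had none. In steps of 2 cycles from 12 to 28, Agtr1a had 2, 13, 12, 5, 8, 15, 8 and 1 values, a spread with a dip from 18 to 20 and no empty step. The highest values at or below 20 were 19.07, 19.08 and 19.58, and the lowest above it were 20.06, 20.29 and 21.19. A sample with an Agtr1a value in both of its runs gave 19.7 and then 23.4, on both sides of the limit that defines late. Most Agtrap values formed a single range, with 107 of 134 from 13 to 18. The 32 early Agtr1a samples had a median of 93 assays with a value, the 32 late ones 82 and the 122 undetected ones 74.5. The authors had removed values that failed their melt-curve checks before deposit. Whether the late values were specific product was not tested here.

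**Figure D2:**
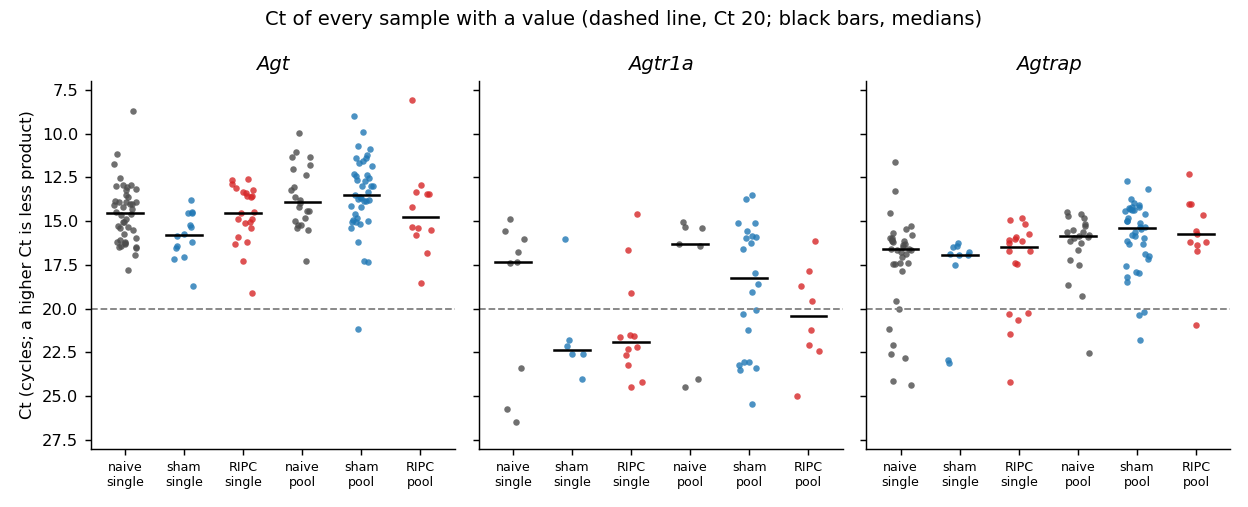
Ct of every analysed sample with a value for Agt, Agtr1a and Agtrap (y axis in cycles, turned so that more product is higher), by treatment and by single neurons or pools; black bars are medians and the dashed line is Ct 20. Agtr1a splits above and below the line, 32 and 32 samples, while 1 of 155 Agt values and 19 of 134 Agtrap values are later than 20.

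Agtr1a, the receptor, had a higher share of detected pools in most operated animals than in naive animals, but the groups overlapped and the test was not passed. It was detected in 0 of 3 pools of naive replicate 1, 4 of 10 of replicate 2 and 3 of 11 of replicate 3. In the sham animals 1 to 4 it was detected in 4 of 7, 6 of 11, 7 of 11 and 5 of 17 pools, and in the RIPC animals 1 to 3 in 1 of 8, 5 of 8 and 2 of 2. Sham replicate 4 (29.4%) and RIPC replicate 1 (12.5%) lay within the naive range of 0 to 40%, and the other 5 operated animals lay above it. The mean of the animals was 22.4% ± 20.4 (SD, n = 3) in naive, 51.2% ± 15.0 (n = 4) in sham and 58.3% ± 43.9 (n = 3) in RIPC. Sham exceeded naive by 28.8 percentage points ± 17.7 (SE; limma, adjusted p = 0.932; exact permutation p = 0.0857, two-sided, where the smallest possible is 0.0286). RIPC exceeded naive by 35.9 points ± 19.0 (limma, adjusted p = 0.996; exact permutation p = 0.3, smallest possible 0.1, so that this contrast could not reach 0.05). RIPC and sham differed by 7.15 points ± 17.7 (limma, adjusted p = 0.994; exact permutation p = 0.886). In these 3 contrasts limma called 0 of 130 genes at an adjusted p of 0.05 (0% in each), and 2, 4 and 1 genes (1.54%, 3.08% and 0.769%) had an unadjusted p under 0.05, none of them one of the 3 genes described here. For 5 of the 130 genes (3.85%) the lowest sham share in pools exceeded the highest naive one, and Agtr1a was not among these. The excess of sham over naive was 17.5 points without naive replicate 1, whose share rests on 3 pools with a mean of 71.7 assays, 15.5 with the mean yield of an animal as a covariate and 18.7 with animals weighted by their samples. Without RIPC replicate 3, whose share rests on 2 pools, the excess of RIPC over naive was 15.1 points, with weights it was 15.3, at a limit of 50% of assays 21.9, and without RIPC replicate 1, whose pools had the lowest yield, it was 58.8 points.

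In single neurons, Agtr1a was positive in 9 of 57 from naive rats, 6 of 16 from sham rats and 12 of 25 from RIPC rats. By animal these were 0 of 3 and 9 of 54 in naive replicates 2 and 3, 3 of 7, 1 of 3, 0 of 1 and 2 of 5 in the sham animals and 2 of 4, 3 of 10 and 7 of 11 in the RIPC animals, so 54 of the 57 naive neurons came from a single rat. The title of 1 single neuron labelled as RIPC replicate 3 has the form of those of replicate 2, and with it placed there the counts were 3 of 11 and 7 of 10. With single neurons and pools counted together the shares were 0, 30.8 and 18.5% in the naive animals, 50, 50, 58.3 and 31.8% in the sham animals and 25, 44.4 and 69.2% in the RIPC animals. Each sham animal then lay above each naive animal, with naive replicate 2 (30.8%) and sham replicate 4 (31.8%) the closest, a separation that 11 of 133 genes (8.27%), Agtr1a among them, showed. The difference was 31.1 points (limma, adjusted p = 0.319; exact permutation p = 0.0571, two-sided, smallest possible 0.0286). RIPC exceeded naive by 29.8 points (limma, adjusted p = 0.938), with RIPC replicate 1 inside the naive range. The sample types were unequally spread over the treatments. Naive rats gave 57 single neurons and 24 pools, sham rats 16 and 46, and RIPC rats 25 and 18. Agtr1a had a value in 27 of 98 single neurons and 37 of 88 pools. Sham and naive animals overlapped in pools alone (28.8 points apart) and in single neurons alone (20.7 points). The part of the sample types in the separation was not tested.

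**Figure D3:**
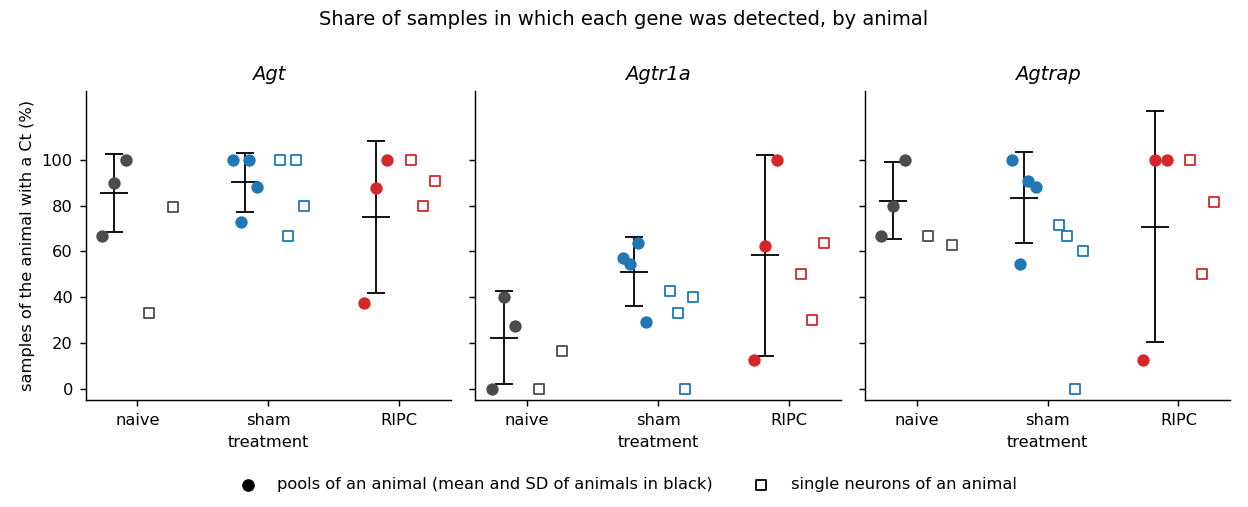
Percent of an animal's samples with a Ct (y axis) for each gene, by treatment (x axis). Filled circles are pools and open squares single neurons, with a point for each animal, and black bars are the mean and SD of the animals' pools (n = 3 naive, 4 sham, 3 RIPC), which can pass 100% because the SD is symmetric. Agtr1a pools range from 0 to 40% in naive, 29.4 to 63.6% in sham and 12.5 to 100% in RIPC animals.

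Late Agtr1a values were 5 of 16 detected samples in naive (31.2%), 14 of 28 in sham (50%) and 13 of 20 in RIPC rats (65.0%). The animals within a group differed as well. All 7 detected samples of sham replicate 3 were early, whereas 5 of 7 in sham replicate 4 and 5 of 7 in sham replicate 1 were late, and all 3 in RIPC replicate 1 were late. With values above 20 counted as undetected, sham exceeded naive by 15.3 points in pools and RIPC exceeded naive by 25.6 points (limma, adjusted p = 0.940 and 0.996). No test of the late share itself was run, since most animals had fewer than 8 detected samples.

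The level of Agtr1a where it was detected was not called in any contrast either. Animals with at least 2 detected pools had mean levels of -4.39 and -5.88 cycles in naive replicates 2 and 3, of -5.84, -5.91, -2.73 and -9.26 in sham replicates 1 to 4 and of -7.89 and -5.81 in RIPC replicates 2 and 3. The sham animals alone spanned the other groups' values. The differences were -0.80 ± 1.41 cycles in sham relative to naive, -1.72 ± 1.63 in RIPC relative to naive and -0.92 ± 1.41 in RIPC relative to sham animals (SE; limma over 99 genes, adjusted p = 0.984, 0.931 and 0.977), and 0 of 99 genes were called in each contrast (0%; 0, 4 and 3 genes, or 0%, 4.04% and 3.03%, had an unadjusted p under 0.05). With late values counted as undetected the RIPC against naive difference was -2.71 cycles (limma, unadjusted p = 0.00272, adjusted p = 0.132). That setting selects on the measured Ct itself. It left 3 and 2 early pools in naive replicates 2 and 3 and 2 in each of RIPC replicates 2 and 3. With 2 animals in each group, an exact permutation p could not go below 0.333.

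Agt, the precursor gene, was detected in most pools of every animal but RIPC replicate 1. The shares were 66.7, 90 and 100% in naive replicates 1 to 3, 100, 72.7, 100 and 88.2% in sham replicates 1 to 4 and 37.5, 87.5 and 100% in RIPC replicates 1 to 3. All groups overlapped. Sham differed from naive by 4.69 points ± 15.7, RIPC from naive by -10.6 ± 16.8 and RIPC from sham by -15.2 ± 15.7 (SE; limma, adjusted p = 0.932, 0.996 and 0.994). Both RIPC differences turned positive, to 8.19 and 3.51 points, without RIPC replicate 1, and single neurons held Agt in 22 of 25 samples from RIPC, 14 of 16 from sham and 44 of 57 from naive rats. Both Gfap and Chat also had a value in 2 of 8 pools of RIPC replicate 1, beside that animal's low yield. In the other RIPC animals these were 7 of 8 and 2 of 2 for Gfap and 8 of 8 and 2 of 2 for Chat. With the mean yield of an animal as a covariate, the Agt share differed by -2.09 points in RIPC minus sham and by -11.9 in RIPC minus naive. The part of Gfap and Chat detection in the result was not tested. Levels of Agt averaged -0.38 ± 0.89 (SD, n = 3) in naive, -0.59 ± 0.52 (n = 4) in sham and -1.28 ± 0.91 (n = 3) in RIPC pools, and the differences of -0.21 ± 0.62, -0.90 ± 0.66 and -0.69 ± 0.62 cycles (SE), in the same order of contrasts, were not called (limma, adjusted p = 0.984, 0.931 and 0.977). Without RIPC replicate 2 the RIPC differences from naive and sham rats were -0.40 and -0.19 cycles, and at a limit of 50% of assays they were -1.89 and -1.51, none of them called. Agt is itself among the 35 genes used for centring.

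Agtrap, the receptor-associated gene, followed a like pattern over the animals. Its pool shares were 66.7, 80 and 100% in the naive animals, 100, 54.5, 90.9 and 88.2% in the sham animals and 12.5, 100 and 100% in the RIPC animals. RIPC replicate 1, with 1 detected pool of 8, set the RIPC mean of 70.8% ± 50.5 (SD, n = 3), against 82.2% ± 16.8 (n = 3) in naive and 83.4% ± 19.9 (n = 4) in sham. The differences of 1.20, -11.4 and -12.6 points, again in that order, were not called (SE 19.0, 20.4 and 19.0; limma, adjusted p = 0.976, 0.996 and 0.994), and without RIPC replicate 1 the RIPC differences were 17.8 and 16.6 points. Its levels in pools ranged from -3.33 to -2.35 in naive, -3.88 to -2.32 in sham and -3.71 to -2.62 cycles in RIPC animals, and no contrast was called (limma, adjusted p = 0.984, 0.931 and 0.977).

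No difference between the left and right DMV was called for any of the 3 genes. Over the 9 animals with at least 2 samples from each side, the share with Agtr1a averaged 44.1% ± 19.2 (SD) on the left and, on the right, 39.8% ± 18.7, higher on the left in 4 animals and lower in 5. The difference was 4.31 points ± 6.29 (SE; limma, adjusted p = 0.979; exact sign-flip permutation p = 0.484). By animal it ran from -16.7 points in RIPC replicate 1 to 29.2 points in sham replicate 1, with 26.2 in naive replicate 2 and 21.7 in sham replicate 4. Agt differed by -5.10 points ± 6.12 (5 animals lower on the left, 2 higher, 2 equal) and Agtrap by 2.95 ± 6.34 (6 higher, 3 lower; limma, adjusted p = 0.979 for both). Late Agtr1a values were 16 of 35 on the left and 16 of 29 on the right. The panel gave 0 calls among 132 genes (0%; 6 genes, 4.55%, at an unadjusted p under 0.05). The level differed by -0.35 ± 0.35 cycles for Agt over 9 animals, 0.47 ± 1.20 for Agtr1a over 7 and 0.23 ± 0.40 for Agtrap over 9 (SE; limma, adjusted p = 0.918 for each; 0% of 113 genes called, 3 (2.65%) at an unadjusted p under 0.05).

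Whether the side difference depended on treatment was tested with a moderated F test. In the 3 RIPC animals Agtr1a was detected less often on the left, by 4.76, 8.33 and 16.7 points, and in the sham animals the left minus right difference was 29.2, -14.3, 12.5 and 21.7 points. The test of the share gave F = 1.21 for Agtr1a, 0.0943 for Agt and 0.413 for Agtrap (limma, adjusted p = 0.997 for each; 0% of 132 genes called, 3 (2.27%) at an unadjusted p under 0.05). For the level, F was 0.288 for Agt and 0.661 for Agtrap (limma, adjusted p = 0.969; 0% of 90 genes called, 2 (2.22%) at an unadjusted p under 0.05), and Agtr1a had too few detected samples per side.

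Single neurons held each gene less often than pools in most animals, in a panel where detection in general was lower in single neurons. Over the 8 animals with at least 2 samples of each type, Agtr1a was detected in 34.6% ± 19.7 of single neurons and 47.9% ± 27.1 of pools (SD), Agtrap in 69.9% ± 15.2 and 79.4% ± 31.3, and Agt in 78.8% ± 21.6 and 84.5% ± 21.1. Each was lower in single neurons in 6 of the 8 animals. The differences were -13.4 points ± 9.04 for Agtr1a, -9.47 ± 12.1 for Agtrap and -5.68 ± 10.1 for Agt (SE; limma, adjusted p = 0.279, 0.587 and 0.687). Limma called 23 of 132 genes (17.4%), all of them lower in single neurons, with 46 (34.8%) at an unadjusted p under 0.05, and the median difference over all genes was -15.2 points, so all 3 genes lay nearer to 0 than the median gene. Agtr1a and Agtrap passed the test without RIPC replicate 1, in which single neurons held Agtr1a in 2 of 4 and Agtrap in 4 of 4 samples but pools in 1 of 8 each. The difference was then -20.6 points for Agtr1a (limma, adjusted p = 0.0427) and -23.3 for Agtrap (adjusted p = 0.0325), and 57 of 129 genes were called. Over the animals left out in turn the number of genes called ran from 5, without sham replicate 1, to that 57, with 12 without RIPC replicate 2.

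Agtr1a was detected most often in the smallest pools, with no test made over pool sizes. Agtr1a was detected in 27 of 98 single neurons (27.6%), 13 of 26 pools of 2 or 3 neurons (50%), 10 of 23 pools of 4 (43.5%) and 14 of 39 pools of 5 to 8 (35.9%). Agtrap was detected in 65.3, 76.9, 82.6 and 79.5% of these samples and Agt in 81.6, 92.3, 82.6 and 82.1%. Late Agtr1a values made up 17 of 27 in single neurons (63.0%) and 15 of 37 in pools (40.5%), and late Agtrap values 14 of 64 (21.9%) and 5 of 70 (7.14%). The level where detected differed between single neurons and pools by 0.18 ± 0.41 cycles for Agt (7 animals), 1.15 ± 0.94 for Agtr1a (5 animals) and -0.34 ± 0.27 for Agtrap (7 animals), and none was called (SE; limma, adjusted p = 0.911, 0.755 and 0.755; 0% of 89 genes called, 8 (8.99%) at an unadjusted p under 0.05). On raw Ct without centring, Agtrap was 1.98 cycles later in single neurons (level difference -1.98; limma, adjusted p = 0.0115), as 11 genes then were called.

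Agtr1a was rarely found without the other 2 genes. All 3 genes were detected together in 51 of 186 samples (27.4%), in 19 of 98 single neurons and 32 of 88 pools. Of the 64 samples with Agtr1a, 59 also held Agt (92.2%) and 54 held Agtrap (84.4%), and 2 held Agtr1a alone. Agt and Agtrap without Agtr1a was the most frequent combination, in 69 samples (37.1%), and 15 samples held none of the 3. In single neurons, where the transcripts came from the same captured profile, 19 of the 27 with Agtr1a held both other genes, 6 held Agt alone beside it and 1 held Agtrap alone beside it. The yield went with the combination, with a median of 92 assays in samples with all 3 genes and 53 in samples with none.

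These counts were close to those expected from each gene's own frequency. With detection independent within each animal and sample type, 56.3 joint samples were expected for Agt with Agtr1a against 59 observed (ratio 1.05), 116.2 against 120 for Agt with Agtrap (1.03) and 50.3 against 54 for Agtr1a with Agtrap (1.07). The median ratio over all 8778 pairs of the 133 genes detected in 10 to 95% of samples was also 1.05. After the animal, the sample type and the number of other assays with a value were removed, the correlation of the detection calls was 0.048 for Agt with Agtr1a, 0.023 for Agt with Agtrap and 0.070 for Agtr1a with Agtrap over 186 samples. All 3 lay between the 5th and 95th percentiles of the gene pairs, at -0.17 and 0.18.

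Gfap was detected with Agt in 135 samples, against 126.2 expected, and the correlation of their calls after the same steps was 0.24, above the 95th percentile of 0.18. Pools without Gfap held Agt in 9 of 20 (45.0%) and pools with Gfap in 66 of 68 (97.1%); for single neurons these were 11 of 19 (57.9%) and 69 of 79 (87.3%). Samples without Gfap also had fewer assays with a value (medians of 56.5 and 101.5 in pools, 61 and 73 in single neurons), which the correlation but not these shares takes into account. The correlation with Gfap was 0.072 for Agtr1a and 0.12 for Agtrap, both within the range of the pairs. For Chat it was 0.081 with Agt, -0.018 with Agtr1a and -0.23 with Agtrap, the last below the 5th percentile and the lowest of Agtrap's 163 partners. Single neurons held Agtrap in 42 of 68 with Chat (61.8%) and in 22 of 30 without (73.3%), whereas pools held it in 63 of 72 with Chat (87.5%) and 7 of 16 without (43.8%), the latter having fewer assays with a value (medians of 99.5 and 59).

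The levels of Agt and Gfap were also correlated. Over the 135 samples with both, the correlation of levels within animal and sample type was 0.45, and Gfap ranked 1 of the 122 genes that shared at least 30 samples with Agt. This ranking was chosen after values had been seen. In pools the correlation within an animal was 0.63 (9 pools), 0.84 (11), 0.086 (7), 0.72 (10), 0.72 (13) and 0.27 (7) in naive replicates 2 and 3, sham replicates 2, 3 and 4 and RIPC replicate 2. In single neurons it was 0.32 over 35 in naive replicate 3, 0.17 over 7 in sham replicate 1, -0.11 over 7 in RIPC replicate 2 and 0.87 over 10 in RIPC replicate 3. With centring on all assays Gfap stayed at rank 1 (0.43), and on raw Ct, where the amount of RNA in the sample is shared by all genes, it was rank 4 (0.60). Samples are not replicates, so no p-value is given. For Agtr1a and Agtrap the correlations of level with Gfap were 0.047 over 58 samples and 0.079 over 118.

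**Figure D4:**
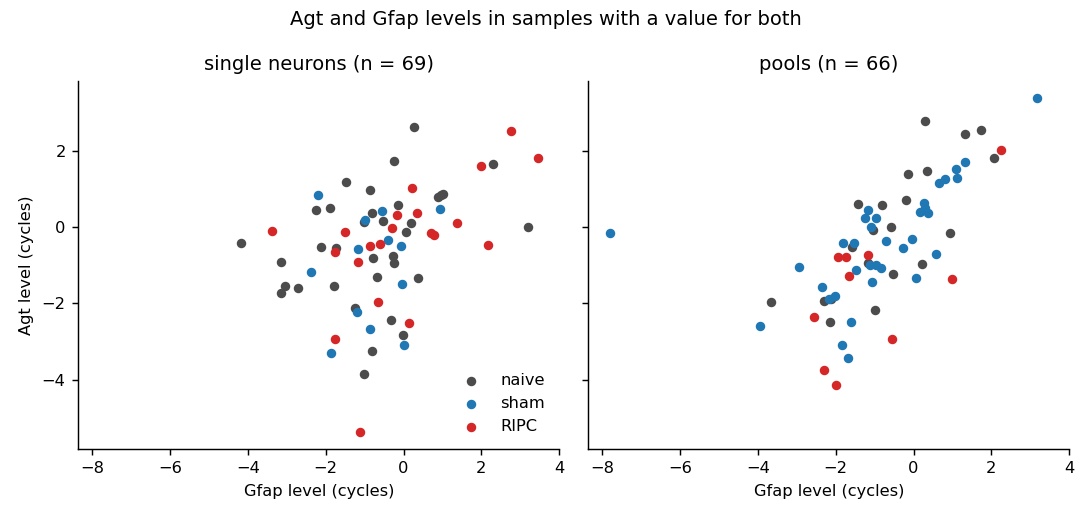
Level of Agt (y axis) against level of Gfap (x axis), both in cycles relative to the sample's 35-gene median, in the 69 single neurons and 66 pools with a value for both; colours mark treatment. Samples with a higher Gfap level tend to have a higher Agt level in the pools, with a correlation within animal and sample type of 0.45 over both panels, and the single neurons scatter more widely.

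Early and late Agtr1a values in single neurons differed in their company. Of the 10 single neurons with an early Agtr1a value, 2 held Chat, and of the 17 with a late value, 15 did. The 51 of 68 Chat-positive neurons without Agtr1a and the 20 of 30 Chat-negative ones without it were 75.0% and 66.7% of those neurons. Where detected, the Agtr1a Ct in the 17 neurons with Chat ran from 16 to 26.5 (median 22.3), and in the 10 without Chat from 14.6 to 22.6 (median 16.7). The median yield was 73 assays in both sets. The 8 early values without Chat came from 3 animals, 5 from naive replicate 3, 1 from RIPC replicate 2 and 2 from RIPC replicate 3. In each of these 3 animals the late values were all in neurons with Chat (3, 2 and 5 neurons), while sham replicates 1 and 4 held the 2 late values without Chat. Both late values of RIPC replicate 2 came from samples run again. In 1 of them the runs gave 19.7 and 23.4, on both sides of 20, with a mean of 21.5. The other gave no Agtr1a value in its first run and a Ct of 23.2 in its second. In pools, all 22 early samples and 12 of 15 late samples held Chat. All 10 early single neurons also held Agt, Agtrap and Gfap, whereas 15, 10 and 16 of the 17 late ones did. This contrast was chosen after the values had been seen and has no test.

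**Figure D5:**
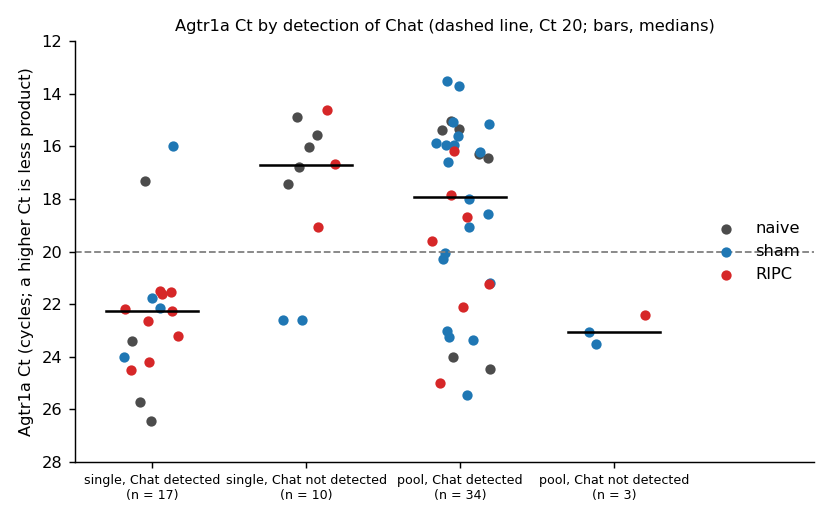
Agtr1a Ct (y axis in cycles, turned so that more product is higher) in single neurons and pools with and without a value for Chat; points are samples coloured by treatment, black bars are medians and the dashed line is Ct 20. Medians are 22.3 and 16.7 in the 17 single neurons with and the 10 without Chat, and 17.9 and 23.1 in the 34 pools with and the 3 without.

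The genes whose detection was most like each of the 3, by the same correlation of calls over 186 samples and 163 partner genes, were different for each. For Agt they were Crebbp, a transcriptional coactivator (0.34), Fstl1, a secreted glycoprotein (0.25), and Hcn2, a hyperpolarization-activated channel (0.24), with Gfap at rank 4. For Agtr1a they were Ntrk2, the receptor of brain-derived neurotrophic factor (0.31), Cacna1g, a T-type calcium channel subunit (0.23), and Grp, gastrin-releasing peptide (0.20). For Agtrap they were Npy1r, a neuropeptide Y receptor (0.20), Hrh2, a histamine receptor (0.14), and Sstr3, a somatostatin receptor (0.14). The 2 Agtrap values of 0.14 lay within the range of the panel's pairs.

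Of 12 genes listed for AT1 receptor signalling and its regulation, 8 were on the panel. The regulator of G protein signalling genes Rgs4 and Rgs2 had values in 166 (89.2%) and 128 (68.8%) samples and Rgs3 in 72 (38.7%, 25 of them late). Rgs1 had a value in 0, which would allow a share of up to 1.61% if the samples were independent. Whether its assay worked was not tested. Grk2, a receptor kinase, had a value in 166 samples, the kinase gene Mapk14 in 174, and the transcription factor genes Jun and Fos in 176 and 39. In the 3 treatment contrasts 0 of the 5 tested members were called in share and 0 of 6 in level, with 0 at an unadjusted p under 0.05 (limma). Their median share differences in the 3 contrasts were 7.22, 4.24 and -5.19 points, beside medians of 7.43, 0.694 and -5.90 over all 130 genes. In single neurons against pools 1 of 7 was called, beside 17.4% of all genes tested. It was Rgs3, with a single minus pool difference of -27.9 points ± 9.26 (SE; limma, adjusted p = 0.0478), beside a median of -6.70 over the 7 and -15.2 over all genes. The Rgs3 call was lost when late values counted as undetected (adjusted p = 0.159), on the arcsine square root scale (0.0538), with no filter on genes (0.0804) and in 6 of 8 fits that left out an animal (limma, adjusted p from 0.0347 to 0.119).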

How the data were processed

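Transcripts were measured by multiplex RT-qPCR (Biomark, EvaGreen) in laser-captured DMV neurons. The deposited values are raw Ct as the authors exported them, with no value below the limit of detection or where melt-curve checks failed; they are neither counts nor normalized. Columns were matched to samples by title, and 0 columns belonged to other series. Samples had been allocated at random to chips, which the labels do not give, so chip effects were not tested.

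Duplicate assays of a gene and repeat runs of 5 samples were averaged. A value in either run counted as detected and toward the yield, so samples run again had a further chance of detection. Samples with a value in at least 25% of assays were kept, 186 of 213. The limit, the member genes and the gene lists were chosen with earlier results of these data known. Levels were sign-turned Ct centred on the sample's median of the 35 genes most often detected; the study centred on its top 35 expressed genes and did not state how these were chosen in the sources used here. An animal's share or its mean level (at least 2 detected samples) was the unit of every test, so p-values measure the spread between animals. Treatments were compared with limma 3.58.1 in R 4.3.3 (lmFit, eBayes; 3 groups in one fit), sides and sample types with limma on differences within animals, all with Benjamini-Hochberg adjustment over all genes tested, at a threshold of 0.05. Shares were tested for genes detected in 10% to 95% of samples. For the member genes exact two-sided permutation or sign-flip tests over animals were added (Python 3.11.15, numpy 2.4.6, pandas 2.3.3, scipy 1.17.1). Both kinds of test were tested on simulated data. A level was tested with at least 2 animals per group, or at least 4 animals in paired comparisons. Joint detection and likeness were described without tests.

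Named genes were the 3 members in every comparison, the listed AT1 receptor signalling genes on the panel and the 3 genes most like each member in detection. The markers Gfap, Chat, Ache, Camk2a, Scn2a, Eno2 and Rgs4 were also named. Hrh1 and Ghsr were named after their late shares had been seen. A further list of angiotensin system genes is not reported here. Alternatives changed the assay limit, the treatment of late Ct, repeat runs, centring, sample types, filters, weights, the yield as a covariate, the animal number as a block, and each animal left out in turn. Animal numbers did not pair animals across treatments.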

Additional observations from a re-analysis of the deposited data

Results flagged for a closer look

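In a check of 27 groups of values for a single animal far from the others, 3 values of Agtrap stood apart. The limit used would mark about 1 in 20 groups by chance if values were normally distributed and groups independent, which was not tested. No single neuron of sham replicate 3 held Agtrap (0%), but that animal had 1 single neuron at the assay limit. With single neurons and pools together, sham replicate 2 held Agtrap in 57.1% of samples, below the other sham animals. The single minus pool difference in the share with Agtrap was 87.5 percentage points in RIPC replicate 1, where 4 of 4 single neurons and 1 of 8 pools held it, and the other 7 animals lay between -50 and 12.1 points. Pools of RIPC replicate 1 had a mean of 65.4 assays with a value and its single neurons 80.5, the only animal in which the pools had the lower mean; the part of the yield in the result was not tested.

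The single minus pool difference in the level of Agtrap was above 0 in each of the 3 sham animals measured (mean 0.11 cycles) and below 0 in both RIPC animals (mean -0.60) and both naive animals (mean -0.77). The difference between the treatments was not tested.

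The 27 samples below the assay limit entered the comparisons in the alternative with no assay limit alone. Of these 27, 10 held Agt (37.0%), 9 Agtr1a (33.3%) and 8 Agtrap (29.6%). Of the 9 Agtr1a values among them 7 were late.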

How the results depend on the processing

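Of 648 values of the 3 genes under alternative settings, 75 changed sign, 50 of them without leaving out an animal, and 3 passed an adjusted p of 0.05: the shares of Agtr1a and Agtrap in single neurons against pools without RIPC replicate 1, and the level of Agtrap in that comparison without centring (-1.98). No value that changed sign was called in either form. Counts of genes called moved as follows: RIPC against naive pool share from 0 to 1 at a limit of 50% of assays; single against pool share from 23 to 48 with animals weighted by samples; single against pool level from 0 to 2 with late Ct as undetected and to 11 without centring.

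Shares (percentage points) changed sign as follows. With single neurons in place of pools, RIPC minus naive was 33.8 for Agt and 12.5 for Agtrap, RIPC minus sham 3.64 and 27.7, and sham minus naive -15.3 for Agtrap. With both sample types together RIPC minus naive was 2.44 for Agt and RIPC minus sham -1.31 for Agtr1a. With weights, RIPC minus sham was -3.38 for Agtr1a and sham minus naive -2.54 for Agt and -4.89 for Agtrap. With the yield as a covariate sham minus naive was -9.77 for Agt and -19.7 for Agtrap, and RIPC minus sham 6.45 for Agtrap. At 50% of assays RIPC minus sham was -7.66 for Agtr1a, and with late Ct as undetected sham minus naive was -2.28 for Agtrap. Left minus right was 7.70 for Agt with no assay limit, and 0.370, -2.52 and -0.908 for Agt, Agtr1a and Agtrap in single neurons.

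Levels (cycles) changed sign as follows. RIPC minus naive for Agtrap was 0.085 with no assay limit, 0.11 without centring, 0.14 in single neurons and 0.054 with the yield as a covariate. RIPC minus sham for Agtrap was 0.15 with no assay limit and 0.0025 with at least 1 detected sample per animal. Sham minus naive was 0.15 for Agt without centring, and for Agtrap 0.21 at 50% of assays, 0.093 centred on all assays, 0.35 without centring, 0.87 in single neurons, 0.048 with both types and 0.28 with the yield. Left minus right was 0.081 for Agt and -0.31 for Agtrap at 50% of assays, -0.31 and -0.13 for Agtr1a and Agtrap with late Ct as undetected, and -0.21 and -0.29 for Agtr1a with no assay limit and with at least 1 detected sample. Single minus pool was -0.0077, -0.39, -1.21 and -0.13 for Agt with no assay limit, centred on all assays, without centring and with at least 1 detected sample, -0.80 and -0.036 for Agtr1a without centring and with at least 1 detected sample, and 0.71 for Agtrap with late Ct as undetected.

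Animal numbers did not pair animals (correlations of same-numbered animals from -0.33 to 0.37 over 9 pairs). With the animal number as a replicate block, 0 genes were called in each treatment contrast; RIPC minus sham was -0.11 for the Agtr1a share, sham minus naive -0.40 for the Agtrap share, and the sham minus naive levels were 0.81 for Agtr1a and 0.22 for Agtrap. With no replicate block, treating values of an animal as independent, single minus pool for the Agt level was -0.020.

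With each animal left out in turn, the results that changed sign had these ranges. Shares: RIPC minus naive -23.1 to 8.19 for Agt and -26.0 to 17.8 for Agtrap; RIPC minus sham -27.7 to 3.51 for Agt, -13.7 to 30.1 for Agtr1a and -27.2 to 16.6 for Agtrap; sham minus naive -4.76 to 11.9 for Agt and -6.58 to 10.8 for Agtrap; left minus right -0.258 to 7.48 for Agtrap; single minus pool -15.4 to 1.61 for Agt. Levels: RIPC minus naive -0.97 to 0.12 for Agtrap; RIPC minus sham -2.02 to 0.15 for Agtr1a and -0.85 to 0.24 for Agtrap; sham minus naive -0.58 to 0.28 for Agt, -1.87 to 0.31 for Agtr1a and -0.42 to 0.22 for Agtrap; left minus right -0.40 to 1.70 for Agtr1a and -0.092 to 0.41 for Agtrap; single minus pool -0.10 to 0.48 for Agt. Genes called in the single against pool share ranged from 5 to 57. Other differences kept their sign and moved by over 1.5 times. Shares: RIPC minus naive 15.1 to 58.8 and sham minus naive 17.5 to 37.5 for Agtr1a; left minus right -8.86 to -2.16 for Agt and 1.20 to 6.93 for Agtr1a; single minus pool -20.6 to -9.55 for Agtr1a and -23.3 to -3.68 for Agtrap. Levels: RIPC minus naive -1.29 to -0.40 for Agt and -2.76 to -0.68 for Agtr1a; RIPC minus sham -1.08 to -0.19 for Agt; left minus right -0.51 to -0.12 for Agt; single minus pool 0.19 to 1.85 for Agtr1a and -0.43 to -0.18 for Agtrap. The cause of these changes was not tested. Sample types could not be compared at a limit of 50% of assays, nor side by treatment in single neurons alone, as too few animals remained.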

Other observations

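Repeat runs gave a view of how stable single values were. Of the 5 samples run again, a sample of RIPC replicate 2 gave no Agt value and then a Ct of 14.9, and an Agtr1a Ct of 19.7 and then 23.4, on both sides of 20. Another sample of that animal gave neither gene in the first run and a Ct of 16.3 for Agt and 23.2 for Agtr1a in the second. In naive replicate 3 a sample gave an Agt Ct of 13.5 and 12.3 and an Agtrap Ct of 16.2 and 14.6, another gave an Agt Ct of 16.1 and 11.7, and the last held none of the 3 genes in either run.

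All 3 genes together were detected in 8 of 57 single neurons from naive, 3 of 16 from sham and 8 of 25 from RIPC rats, and in 7 of 24, 19 of 46 and 6 of 18 pools. These counts are dominated by a few animals and were not tested.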
